A study of Mus musculus with 8 samples.

Results

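Respiratory complex I was followed in bulk messenger RNA of mouse atria through 48 genes, 40 subunit rows and 8 assembly factors, of 54532 genes in the count table. The members were the rows whose symbol begins with Ndufa, Ndufb, Ndufc, Ndufs, Ndufv, Ndufab or Ndufaf, without the -ps pseudogenes, and with at least 80 counts summed over the 8 libraries. This rule uses names and total counts, though the group of genes was chosen with earlier results of these data known. All mice carried floxed Chd4 alleles (Chd4flox/flox). On postnatal day 2 they were injected with an adeno-associated vector in which the Nppa promoter, active in atrial muscle, drove Cre recombinase (AAV9:Nppa-Cre, KO, 4 libraries) or EGFP (AAV9:Nppa-EGFP, control, 4 libraries). Chd4 encodes the ATP-dependent remodelling subunit of the NuRD complex, and the comparison asked what its loss after birth changed in the atria. Only the KO mice received Cre and only the controls EGFP, so effects of these proteins and of Chd4 loss cannot be told apart. The samples were right and left atria labelled as mixed cell types, so they also hold cells in which this promoter is not known to be active. The age at collection was not given in the sources used here. Whether each sample is a separate mouse is not stated in the labels, so the p-values refer to the spread among these samples and part of that spread may be technical.

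Complex I is the NADH dehydrogenase of the inner mitochondrial membrane. It passes electrons from NADH through a flavin and a chain of iron-sulfur clusters to ubiquinone, and pumps protons across the membrane. Its N module binds NADH, its Q module reduces ubiquinone, and its membrane arm, which holds the subunits encoded by mitochondrial DNA, pumps the protons. Assembly factors join and modify the modules and are absent from the finished enzyme. Working heart muscle makes most of its ATP by oxidative phosphorylation, and its mitochondria are rich in this complex.

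Total counts were 34002292 to 38228982 in the KO and 39804625 to 40588007 in the control libraries. Levels are given as CPM, counts scaled to a library total of 1e6 with TMM factors, and differences as log2 fold changes of KO over control. The targeted Chd4 (ENSMUSG00000063870, chr6:125095981-125130591, plus strand, GRCm38) was at 169, 185, 187 and 199.6 CPM in KO 1 to 4 and at 278, 297, 284 and 308 CPM in control 1 to 4. Every KO library lay below every control library, and the log2 fold change was -0.66 (SE 0.06, edgeR adjusted p = 1.86e-05). Chd4 transcripts remained in KO atria, and the counts do not separate cell types or the floxed exons. KO 2 and control 2 stood apart on the second principal component, at -21.4 and -30.4, from the other 6 libraries. The Y-linked Ddx3y was at 0.706 to 0.858 CPM in KO 2, control 1 and control 2 and at 105 to 124 CPM in the other 5 libraries, so Y-linked expression was unequally spread over the groups. With it as a covariate, edgeR called 30 of 40 subunit rows and 4 of 8 assembly factors lower, against 29 and 4 without it. No KO library shared its name prefix with a control library, so effects of prefix and of group cannot be told apart. Prefixes also differed within the groups: KO 1 had 15386 and KO 2 to 4 had 15394. Controls 1 and 2 had 15390, and controls 3 and 4 had 16301. Leaving out KO 1 or splitting the controls in this way therefore also split the libraries by prefix.

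Transcripts of nuclear-encoded complex I were lower in the KO atria. In edgeR's test over 18033 genes (called at an adjusted p under 0.05), 33 of the 48 members were lower, beside 13.1% of all tested genes. No member was higher, beside 14.8% of all tested genes, and none was higher at an unadjusted p under 0.05 or in DESeq2 or limma-voom. The other 15 members were not called. The median log2 fold change (KO minus control) was -0.33 over the members and 0.01 over all tested genes, whose middle 50% ran from -0.19 to 0.26. In 32 members all 4 KO libraries lay below all 4 controls, as they did in 13.9% of all tested genes. The sizes were moderate: 26 members were lower by at least 1.2-fold and 3, Ndufa8, Ndufa11 and Ndufb10, by at least 1.5-fold. All 48 members passed the filter on low counts. The summed level of 8 cardiomyocyte markers differed in the same direction, at 51793 to 65694 CPM in KO and 79769 to 87182 CPM in control. The part of cell composition in the lower level of complex I transcripts was not tested, and in bulk tissue fewer heart muscle cells and less RNA per cell cannot be told apart. Without KO 2 and control 2, an alternative chosen after seeing the data, 24 of 40 subunit rows and 3 of 8 assembly factors were called lower, against 29 and 4 with all libraries.

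**Figure D1:**
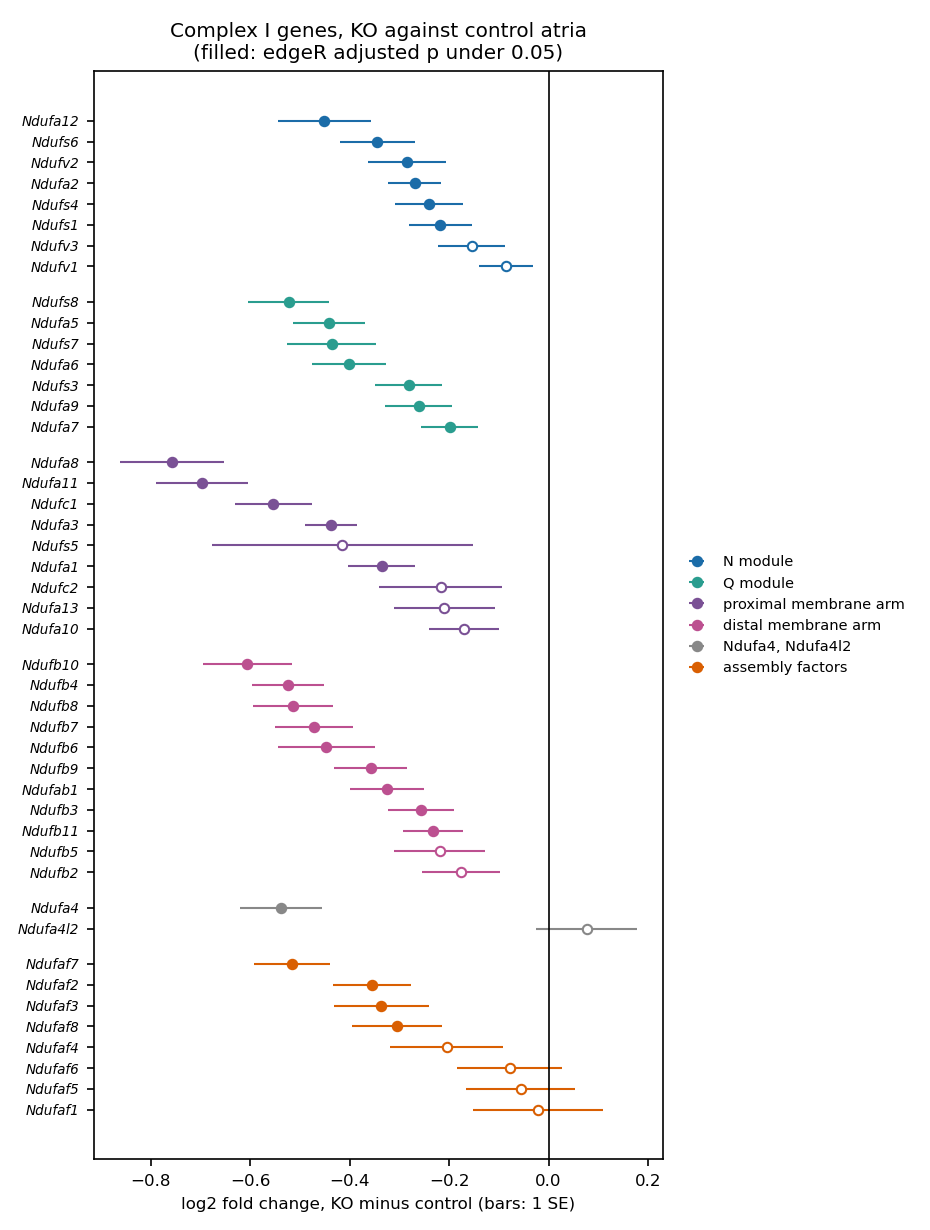
Log2 fold change (KO minus control) of 45 protein-coding members on the horizontal axis, by module on the vertical axis. Points are edgeR estimates, bars 1 SE, and filled points passed the threshold. The 45 points run from -0.76 for Ndufa8 to 0.08 for Ndufa4l2, and 44 lie left of 0.

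The sequence upstream of the members was searched for 10 short motifs, among them the core of the site read by NRF1, a factor known for binding promoters of nuclear genes of oxidative phosphorylation. RefSeq (GRCm38.p6) gave a window for 40 members, taken as the 1 nearest to a coding transcript start of the gene in GENCODE M21. Of these, 37 windows had the orientation of the gene's transcripts, 29 of them of complex I subunits and 7 of assembly factors. The 21263 windows set beside them came from 17492 protein-coding genes, without that choice of start or check of orientation. The core GCATGCGC, searched on both strands in the 250 bases upstream of the start, stood in 3 of 29 subunit windows (10.3%), 1 of 7 assembly factor windows (14.3%) and 2.93% of 21263 windows of protein-coding genes. The 4 members that held it are shown because Ndufa8 and Ndufa11, the called members of largest change, were among them, so they were chosen with their values known and support no link between site and change. Capitals mark the match, extended where overlapping matches on the 2 strands form the longer palindrome. Ndufa8 and Ndufa11 are shown as 30 bases around the site and the others as the part of the window without annotated UTR.
Ndufa8 (chr2:36049339-36049368, minus strand): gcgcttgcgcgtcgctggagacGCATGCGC
Ndufa11 (chr17:56717692-56717721, plus strand): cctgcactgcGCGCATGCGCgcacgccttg
Ndufa6 (chr15:82354323-82354541, minus strand): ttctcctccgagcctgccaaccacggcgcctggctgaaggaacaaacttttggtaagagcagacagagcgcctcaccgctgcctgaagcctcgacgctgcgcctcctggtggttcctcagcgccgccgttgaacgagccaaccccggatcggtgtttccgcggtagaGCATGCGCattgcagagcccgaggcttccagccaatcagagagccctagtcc
Ndufaf4 (chr4:24897833-24898082, plus strand): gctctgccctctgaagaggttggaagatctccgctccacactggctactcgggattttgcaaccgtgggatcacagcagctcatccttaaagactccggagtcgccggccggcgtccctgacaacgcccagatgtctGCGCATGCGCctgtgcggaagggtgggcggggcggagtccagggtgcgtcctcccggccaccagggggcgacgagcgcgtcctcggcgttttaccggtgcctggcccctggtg
The windows end at the RefSeq start, which can differ from that of GENCODE M21: the Ndufa8 site lies within the GENCODE gene, in transcribed sequence. The whole windows of Ndufa8, Ndufa11 and Ndufa6 hold 139, 88 and 31 bases annotated as UTR of any gene on either strand. The Ndufa11 window lies upstream of its GENCODE gene, so its 88 bases are not UTR of Ndufa11. Ndufaf4, which holds the same palindrome as Ndufa11, was not called (-0.21, edgeR adjusted p = 0.207). The ETS core CCGGAAG stood in 3 of 29 subunit windows (10.3%), 2 of 7 assembly factor windows (28.6%) and 8.98% of all windows. The T-box letters AGGTGTGA were in none of these 29 and 7 windows and in 0.997% of all windows. The shorter T-box letters GGTGTG were in 3 of 29 subunit windows (10.3%), 2 of 7 assembly factor windows (28.6%) and 15.8% of all. Of the other motifs, CCAAT stood in 34.5% of subunit windows and 35.4% of all, GGGCGGG in 34.5% and 31.1%, and TATAAA in 6.9% and 11.6%. Of the 7 assembly factor windows 4 held CCAAT and 4 held GGGCGGG (57.1% each), and none held TATAAA. AAGATGGCG (YY1) and TCAAGGTCA (ERR) were in no subunit or assembly factor window and in 0.72% and 0.32% of all. The longer palindrome of the NRF1 site contains the core. It was in 3.45% of subunit windows, 14.3% of assembly factor windows (1 of 7) and 1.07% of all. A match of letters is a description, and an empty window says nothing about the factor.

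Among 36 rows that are complex I subunits proper (without Ndufa4, Ndufa4l2 and the annotated pseudogenes), 28 were lower and 8 were not called, with log2 fold changes from -0.76 to -0.09. Their summed level was 4788 to 5738 CPM in KO and 6005 to 6631 CPM in control, a change of -19.6% in the means. By module, 6 of 8 subunits of the N module were lower (median log2 fold change -0.26), 8 of 8 of the Q module (-0.34), 5 of 9 of the proximal membrane arm (-0.41) and 9 of 11 of the distal membrane arm (-0.36). Differences between modules were not tested. The median level of these 36 subunits, relative to the control mean, was -0.16, -0.34, -0.37 and -0.44 (log2) in KO 1 to 4 and between -0.08 and 0.05 in the controls. KO 1 was the highest KO library in 42 of the 46 protein-coding members and KO 4 the lowest in 33, while control 2 was the lowest control in 34.

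**Figure D2:**
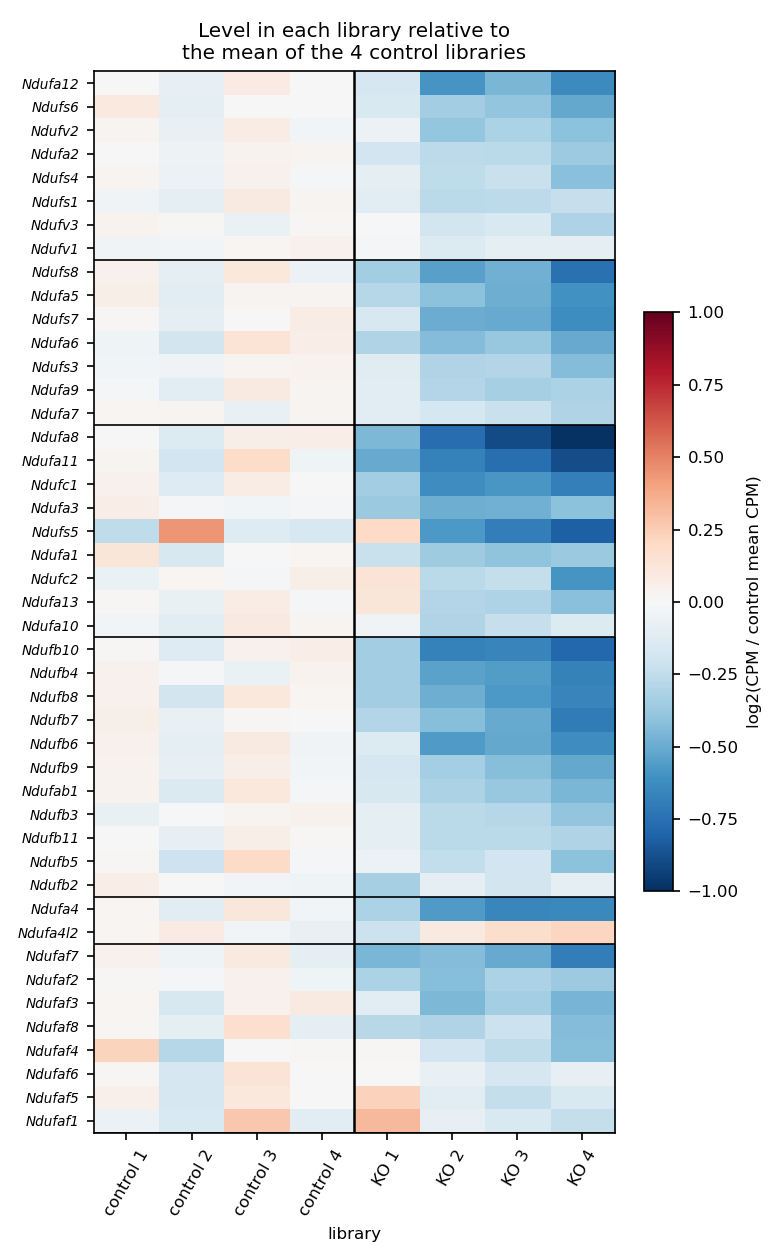
Level of 45 protein-coding members (rows, by module from the N module at the top to the assembly factors at the bottom) in each library (columns) as log2 of CPM over the mean of the 4 controls. KO 1 is the palest KO column for most rows, and Ndufs5 has high values in control 2 and KO 1.

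The 7 core subunits encoded in the nucleus carry the flavin and the iron-sulfur clusters, and 6 of them were lower. Ndufv1, which binds NADH and the flavin, was at 497, 459, 472 and 471 CPM in KO 1 to 4 and at 492, 494, 510.5 and 519 CPM in control 1 to 4. The groups overlapped, and its log2 fold change was -0.09 (SE 0.05, edgeR adjusted p = 0.267). Ndufv2, which carries an iron-sulfur cluster beside it, was at 292, 234, 245 and 229 CPM in KO 1 to 4 and at 311, 289, 321 and 299 CPM in control 1 to 4. KO 1 reached into the control range, and the log2 fold change was -0.29 (SE 0.08, edgeR adjusted p = 0.0182). Ndufs1, the large iron-sulfur subunit of the N module, was at 494, 441, 443 and 453 CPM in KO 1 to 4 and at 520.5, 499.7, 566 and 543 CPM in control 1 to 4. The ranges were separate by a small gap, and the log2 fold change was -0.22 (SE 0.06, edgeR adjusted p = 0.0232). The calls of these last genes rested on single libraries: without KO 2, KO 3 or KO 4 the edgeR adjusted p of Ndufv2 was 0.0516 to 0.0579, and without KO 2, KO 3, KO 4, control 3 or control 4 that of Ndufs1 was 0.0542 to 0.0724.

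The core subunits of the Q module were lower in every case. Ndufs7, which holds the last cluster before ubiquinone, was at 167, 132, 132 and 121 CPM in KO 1 to 4 and at 189, 175, 187 and 196 CPM in control 1 to 4. KO 1 was nearest to the controls, without overlap, and the log2 fold change was -0.44 (SE 0.09, edgeR adjusted p = 0.00337). Ndufs8, another iron-sulfur subunit, was at 119, 104, 108 and 90.2 CPM in KO 1 to 4 and at 156, 141, 162 and 145 CPM in control 1 to 4. This was the core subunit with the largest difference, a 1.44-fold decrease without overlap, and the log2 fold change was -0.52 (SE 0.08, edgeR adjusted p = 0.000583). Ndufs3, a core subunit without a cluster, was at 172, 151, 152 and 138 CPM in KO 1 to 4 and at 183, 182, 189.7 and 192 CPM in control 1 to 4. All KO values lay below the controls, and the log2 fold change was -0.28 (SE 0.07, edgeR adjusted p = 0.00821).

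Accessory subunits of the membrane arm showed the largest differences. Ndufa8, a cysteine-rich subunit on the intermembrane side of the proximal arm (ENSMUSG00000026895, chr2:36036326-36049406, minus strand), was at 144, 116, 106 and 99.4 CPM in KO 1 to 4 and at 197, 179, 205 and 206 CPM in control 1 to 4. All KO libraries were below all controls, with means of 116 ± 19.8 CPM in the KO and 197 ± 12.1 CPM in the control group (SD, n = 4 each). This was a 1.69-fold decrease, and the log2 fold change was -0.76 (SE 0.10, edgeR adjusted p = 0.000329). Ndufa11, a membrane subunit that touches complex III in the respiratory supercomplex (ENSMUSG00000002379, chr17:56717767-56722141, plus strand, with exons overlapped by Vmac on the opposite strand), was at 78.6, 69.6, 66.1 and 60.2 CPM in KO 1 to 4 and at 114, 97.2, 126 and 108 CPM in control 1 to 4. The groups were separate, with means of 68.6 ± 7.70 CPM in the KO and 111 ± 12 CPM in the control group (SD, n = 4 each). This was a 1.62-fold decrease, and the log2 fold change was -0.70 (SE 0.09, edgeR adjusted p = 0.000216). Ndufa3, a small membrane subunit, was at 87.5, 80.5, 80.8 and 85.1 CPM in KO 1 to 4 and at 118, 111, 111 and 111 CPM in control 1 to 4. The KO values lay close together below the controls, and the log2 fold change was -0.44 (SE 0.05, edgeR adjusted p = 9.41e-05), the smallest adjusted p among the members. Ndufc1, also a membrane subunit of the proximal arm, was at 54.7, 45.2, 46.7 and 43.5 CPM in KO 1 to 4 and at 72, 63.7, 73.6 and 69.5 CPM in control 1 to 4. The groups did not overlap, and the log2 fold change was -0.55 (SE 0.08, edgeR adjusted p = 0.00026).

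In the distal arm Ndufb10, a cysteine-rich subunit (ENSMUSG00000040048, chr17:24722060-24724478, minus strand), was at 219, 174, 177 and 162 CPM in KO 1 to 4 and at 282, 254, 287 and 291 CPM in control 1 to 4. The groups were separate and the decrease was 1.52-fold, and the log2 fold change was -0.61 (SE 0.09, edgeR adjusted p = 0.000401). Ndufb4, a membrane subunit, was at 34, 29.9, 29.4 and 27.1 CPM in KO 1 to 4 and at 44.6, 42.9, 41.3 and 44.5 CPM in control 1 to 4. Each KO library was under the lowest control, and the log2 fold change was -0.52 (SE 0.07, edgeR adjusted p = 0.000243). Ndufb8, also of the distal arm, was at 152, 137, 129.7 and 122 CPM in KO 1 to 4 and at 198, 170.2, 207 and 196 CPM in control 1 to 4. KO 1 and control 2 came nearest to each other without overlap, and the log2 fold change was -0.51 (SE 0.08, edgeR adjusted p = 0.000567); its exons overlap Gm20538 on the same strand, so reads may be split between them. Ndufab1, the mitochondrial acyl carrier protein that also serves fatty acid and lipoate synthesis, was lower with a log2 fold change of -0.32 (edgeR adjusted p = 0.00716).

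Ndufa12 and Ndufa4 are members with a paralog in the list. Ndufa12, an accessory subunit of the N module, was at 171, 127, 139.8 and 123 CPM in KO 1 to 4 and at 191, 181, 203 and 192 CPM in control 1 to 4. No library of KO reached the controls, and the log2 fold change was -0.45 (SE 0.09, edgeR adjusted p = 0.00390). Its paralog Ndufaf2, which holds the place of Ndufa12 during assembly, was at 10.6, 9.85, 10.6 and 10.2 CPM in KO 1 to 4 and at 13.3, 13.1, 13.6 and 12.8 CPM in control 1 to 4. Both groups were tight and separate, and the log2 fold change was -0.36 (SE 0.08, edgeR adjusted p = 0.00523). Ndufa4, named as a complex I subunit and now known as a part of complex IV, was at 337, 283, 266 and 267 CPM in KO 1 to 4 and at 424, 389, 452 and 411 CPM in control 1 to 4. The groups were far apart relative to their spread, and the log2 fold change was -0.54 (SE 0.08, edgeR adjusted p = 0.000519). Ndufa4l2, its paralog known as a gene induced by low oxygen, was at 10.4, 12.8, 13.6 and 14 CPM in KO 1 to 4 and at 12.2, 12.7, 11.8 and 11.4 CPM in control 1 to 4. The groups overlapped, and the log2 fold change was 0.08 (SE 0.10, edgeR adjusted p = 0.619). It was the only one of the 48 members with a log2 fold change above 0. The difference between the paralogs' changes was not tested. Per kilobase of exon Ndufa4 had the highest control level of the protein-coding members (303 CPM), and Ndufa4l2 was at 11 CPM.

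The other subunits called lower had log2 fold changes from -0.47 (Ndufb7) to -0.20 (Ndufa7). Ndufa7 and Ndufs4, a subunit of the N module, were called near the threshold. Without KO 3, KO 4, control 1 or control 4 the edgeR adjusted p of Ndufa7 was 0.0585 to 0.0697, and without KO 2, KO 4 or control 1 that of Ndufs4 was 0.0502 to 0.0527. Apart from Ndufv1 and Ndufs5, the subunits proper that were not called were Ndufa10 (log2 fold change -0.17), Ndufb5 (-0.22), Ndufv3 (-0.15), Ndufb2 (-0.18), Ndufa13 (-0.21) and Ndufc2 (-0.22), with edgeR adjusted p from 0.0927 to 0.226. In 5 of these 6, all but Ndufb2, a KO library lay within the control range or above it. Without KO 1 the same 5 were called lower, with edgeR adjusted p from 0.00106 (Ndufa13) to 0.0336 (Ndufb5), and 35 of 40 subunit rows were called in all. In Ndufa13, also known as GRIM-19, KO 1 held 229.9 CPM and the other KO libraries 159 to 173 CPM.

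Ndufs5, a subunit on the intermembrane side, was at 55.7, 32.7, 30.1 and 27.6 CPM in KO 1 to 4 and at 40.8, 65.9, 44.5 and 43.4 CPM in control 1 to 4. The groups overlapped, with control 2 and KO 1 high, and the log2 fold change was -0.41 (SE 0.26, edgeR adjusted p = 0.286). A processed pseudogene, BC002163 (ENSMUSG00000081824, chr16:42955631-42955949, plus strand), matched the Ndufs5 transcript at 99.3% over 274 bases (chr4:123712710-123718202, minus strand for Ndufs5), so reads of either can be split between them. BC002163 was at 0.944, 14.2, 13.2 and 14.9 CPM in KO 1 to 4 and at 18.2, 2.12, 18.6 and 18.3 CPM in control 1 to 4. It took 1.66% and 3.11% of the summed level of both genes in KO 1 and control 2, and 29.5% to 35% in the other 6 libraries. The sum was 56.7, 46.9, 43.3 and 42.5 CPM in KO 1 to 4 and 59.1, 68.0, 63.1 and 61.7 CPM in control 1 to 4, without overlap. In a fit with the counts of both genes in 1 row, chosen after their values were seen, the log2 fold change was -0.41 (edgeR adjusted p = 0.00464). It was -0.51 (0.000178) without KO 1 and -0.37 (0.0116) without control 2.

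**Figure D3:**
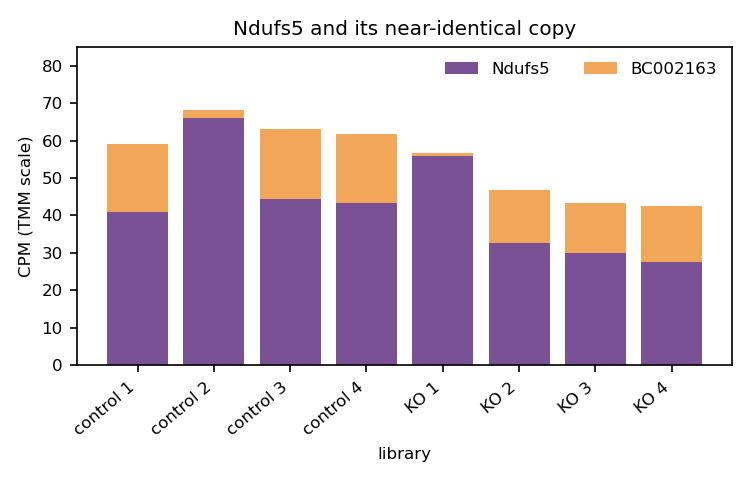
Stacked bars of the level (CPM, vertical axis) of Ndufs5 and of BC002163 in each library. The copy is a thin band in control 2 and KO 1, and the summed bars of the KO libraries (42.5 to 56.7 CPM) lie below those of the controls (59.1 to 68.0 CPM).

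Among the rows just above the limit of 80 counts were Ndufs6b (123 counts in all) and Ndufb4c (136), both annotated as processed pseudogenes, of Ndufs6 and Ndufb4. Ndufs6b was at 0.265, 0.198, 0.381 and 0.271 CPM in KO 1 to 4 and at 0.286, 0.605, 0.587 and 0.611 CPM in control 1 to 4. Control 1 lay within the KO range, and the log2 fold change was -0.90 (SE 0.35, edgeR adjusted p = 0.0789). Ndufb4c was at 0.413, 0.620, 0.109 and 0.325 CPM in KO 1 to 4 and at 0.676, 0.580, 0.510 and 0.306 CPM in control 1 to 4. The groups overlapped, and the log2 fold change was -0.49 (SE 0.44, edgeR adjusted p = 0.449). Ndufa11b, with 19 counts, was the only row that the limit left out. Ndufb1-ps, with 10122 counts, was left out by its name; GENCODE M21 lists it as a non-coding transcript, and its log2 fold change was -0.21 (edgeR adjusted p = 0.0333).

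Of the 8 assembly factors 4 were lower, with a median log2 fold change of -0.25 over the 8. Their summed level was 140.5 to 180.2 CPM in KO and 166 to 197 CPM in control, and these ranges overlapped. Per kilobase of exon their control levels ran from 4.44 CPM (Ndufaf2) to 18.2 CPM (Ndufaf1), and Ndufb2 and Ndufa4l2 were the only protein-coding subunit rows below 18.2 CPM. Ndufaf7, an arginine methyltransferase of the mitochondrial matrix (ENSMUSG00000024082, chr17:78937136-78948052, plus strand), was at 22.3, 22.7, 21.6 and 19 CPM in KO 1 to 4 and at 31.6, 29.7, 32.6 and 28.6 CPM in control 1 to 4. Its groups did not overlap, and the log2 fold change was -0.52 (SE 0.08, edgeR adjusted p = 0.000391), the largest difference among the factors. Ndufaf3, which acts on the Q module, was at 17.9, 14.1, 15.3 and 14 CPM in KO 1 to 4 and at 19.6, 17.3, 19.9 and 20.6 CPM in control 1 to 4. KO 1 lay within the control range, and the log2 fold change was -0.34 (SE 0.10, edgeR adjusted p = 0.0206). Ndufaf4, its partner in the same complex, was at 59.1, 51.3, 49 and 43.5 CPM in KO 1 to 4 and at 68.3, 48, 58.5 and 59 CPM in control 1 to 4. Control 2 lay below most KO libraries, and the log2 fold change was -0.21 (SE 0.11, edgeR adjusted p = 0.207), or 0.0495 without control 2. Ndufaf8, which stabilises Ndufaf5, was at 12.1, 11.9, 12.6 and 10.8 CPM in KO 1 to 4 and at 14.7, 13.6, 16.4 and 13.6 CPM in control 1 to 4. The groups were separate by a small gap, and the log2 fold change was -0.30 (SE 0.09, edgeR adjusted p = 0.0260).

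Ndufaf5, which hydroxylates Ndufs7, was at 16.9, 13.4, 12.3 and 13 CPM in KO 1 to 4 and at 14.9, 12.9, 15.5 and 14.4 CPM in control 1 to 4. KO 1 was the highest of the 8 libraries, and the log2 fold change was -0.06 (SE 0.11, edgeR adjusted p = 0.739). Ndufaf6, a factor of early assembly, was at 7.23, 6.85, 6.43 and 6.83 CPM in KO 1 to 4 and at 7.28, 6.43, 7.91 and 7.23 CPM in control 1 to 4. The groups overlapped almost fully, and the log2 fold change was -0.08 (SE 0.11, edgeR adjusted p = 0.623). Ndufaf1, a member of the assembly complex with Ecsit and Acad9, was at 34.1, 25.9, 24.6 and 23.2 CPM in KO 1 to 4 and at 26.3, 24.6, 33 and 25.4 CPM in control 1 to 4. KO 1 and control 3 stood above the other libraries, and the log2 fold change was -0.02 (SE 0.13, edgeR adjusted p = 0.925). The count of 4 rested on single libraries. Ndufaf3 was not called without KO 2, KO 4, control 1 or control 4 (edgeR adjusted p 0.0506 to 0.0649), nor Ndufaf8 without KO 2, KO 4, control 1 or control 3 (0.0605 to 0.0774), so 2 factors were called without KO 2, without KO 4 or without control 1. The shares, 29 of 40 subunit rows (72.5%) and 4 of 8 assembly factors (50%), were not tested against each other. Other genes of complex I assembly were listed apart from the members, and 5 of 12 were lower and none higher, with a median of -0.21. Ecsit was lower at 33.2 against 50.4 CPM (-0.60, edgeR adjusted p = 0.00052), Tmem186 at 18.5 against 23.7 CPM (0.00320), Acad9 at 34.6 against 44.3 CPM (0.00437), Aifm1 at 74 against 92.9 CPM (0.00535) and Lyrm2 at 13.4 against 16.6 CPM (0.0257).

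The 7 subunits encoded in mitochondrial DNA, which sit in the membrane arm, showed no shift of this kind in their median. None of the 7 was called by edgeR, with 1, mt-Nd3, at an unadjusted p under 0.05. DESeq2 called 1 (mt-Nd3, higher) and limma-voom called 1 (mt-Nd1, lower). Their median log2 fold change was 0.02, in a range from -0.18 (mt-Nd1) to 0.34 (mt-Nd3). Their summed level was 35562 to 38405 CPM in KO and 35255 to 41096 CPM in control, and the KO range lay within the control range. Of the 6 other protein-coding genes of mitochondrial DNA none was called by edgeR (1, mt-Atp6, at an unadjusted p under 0.05, none by DESeq2 or limma-voom). A test of the nuclear against the mitochondrial subunits was not made.

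Genes of the other respiratory complexes were also called lower. Of complex II 2 of 4 genes were lower (median log2 fold change -0.18), of complex III 6 of 9 (-0.39), of the nuclear complex IV subunits 11 of 13 (-0.50) and of ATP synthase 13 of 15 tested (-0.43), with no gene higher. The complex IV genes of smallest p were Cox8b (log2 fold change -0.64), Cox7a1 (-0.74), Cox7c (-0.60) and Cox5b (-0.62). Of complex II, Sdhc (-0.46, edgeR adjusted p = 0.000536) and Sdhd (-0.26, 0.0415) were lower, while its catalytic subunit Sdha was not called (-0.03, edgeR adjusted p = 0.740). The transcript of citrate synthase (Cs), a matrix enzyme, was at 936 CPM in KO against 943 CPM and was not called (edgeR adjusted p = 0.939). Among 8 genes of the outer membrane and matrix 5 were lower, with Vdac1 at -0.33 and the chaperone Hspa9 at -0.40.

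**Figure D4:**
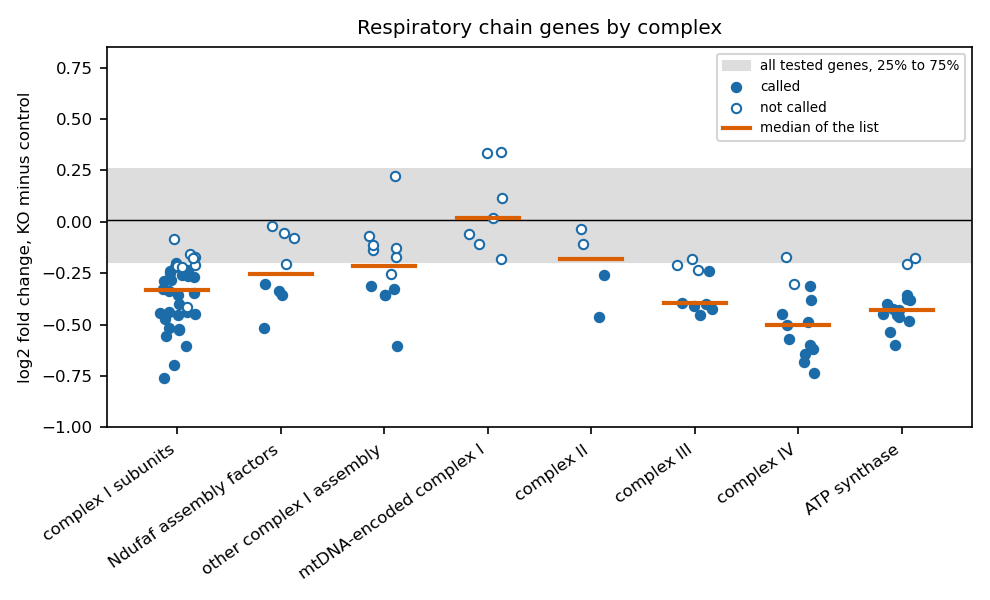
Log2 fold change (KO minus control, vertical axis) of each tested gene of complex I and of other respiratory lists (horizontal axis), with list medians as bars and the middle 50% of all tested genes (-0.19 to 0.26) shaded. Filled points passed edgeR's threshold. Medians of nuclear complex I subunits, both lists of assembly genes, complex III, complex IV and ATP synthase lie below the shaded band. That of complex II (-0.18) lies within it, and that of the complex I genes of mitochondrial DNA is at 0.02.

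Regulators of mitochondrial genes were read from a list of 10, of which 2 were lower and none higher. Their median log2 fold change was -0.21, and 7 of the 10 lay below 0, in a range from -0.57 to 0.21. Gabpa, the DNA-binding part of the ETS factor NRF2, was at 64.4 CPM in KO against 79.1 CPM (edgeR adjusted p = 0.00206). Ppargc1b, a coactivator of mitochondrial genes, was at 13.5 and 18 CPM (0.0437). Nrf1 itself was not called, at 22.2 and 21.7 CPM (edgeR adjusted p = 0.798), nor were Ppargc1a (log2 fold change 0.21) and Tfam (0.05).

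Markers of cell types moved with the same contrast. Of 8 cardiomyocyte markers 7 were lower (median log2 fold change -0.41), and KO 1 had the highest summed level of the KO libraries, as it had for most members. The other libraries were ordered differently. The lowest KO library was KO 2 for the marker sum and KO 4 for most members. The highest control was control 4 for the marker sum and control 3 for most members. Myl7 (log2 fold change -1.21), Myh6 (-0.59), Tnni3 (-0.51) and Nppa (-0.70), the gene whose promoter the vectors carry, had the smallest p. Of fibroblast markers 4 of 7 were higher (summed level 6878 to 9076 CPM in KO and 5939 to 6619.8 CPM in control), of endothelial markers 4 of 6 were higher and 1 lower (1280.4 to 1462 and 1157 to 1254 CPM), of macrophage markers 4 of 6 were higher (287 to 383 and 239 to 293 CPM) and of epicardial markers 3 of 5 were higher (551 to 686 and 419 to 547 CPM). Of 4 smooth muscle markers 2 were higher and 1 lower (88.3 to 159 and 132 to 360.0 CPM). Brown adipocyte markers, of which none was called by edgeR, DESeq2 or limma-voom or had an unadjusted p under 0.05, summed to 6.15 to 39.3 CPM in KO, with KO 4 highest, and 7.22 to 7.96 CPM in control. Ucp1 was at a mean of 0.108 CPM in KO and 0.0382 CPM in control, and Plin1, Adipoq and Tagln had control means of 0.646, 0.468 and 0.669 CPM. The lowest mean among the other markers was 6.38 CPM (Cidea in control).

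Levels differed widely among the members. Per kilobase of exon the protein-coding members ranged in control from 3.03 CPM (Ndufb2) to 303 CPM (Ndufa4), followed by 254 CPM for Ndufb11. Across the 46 protein-coding members the log2 fold change had a Pearson r of -0.36 and a Spearman rho of -0.27 with the log2 control level per kilobase, and of -0.28 and -0.18 with the log2 control level not divided by length. The control level enters both axes, which by itself pulls such values below 0, and the points share the same libraries, so no p is given. Exons of 19 members overlap another gene. As the strand setting of the counting was not given in the sources used here, reads of such neighbours may be included. In Ndufb2, Ndufb8 and Ndufb9 a neighbour lies on the same strand, so reads may be split between the genes. The exon length joins all annotated exons of a gene, 5628 bases in Ndufb2, so its low level per kilobase may partly reflect both.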

How the data were processed

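Atrial RNA was selected by oligo-dT and sequenced in bulk, per the labels' protocols. For each of 4 KO and 4 control libraries the authors deposited raw read counts per gene as whole numbers. The submitters' processing notes name STAR, DESeq2 and mm10 without versions. How reads were counted, on which strand and with which annotation was not given in the sources used here. Each column was assigned to its sample through the vector and number in its name.

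Genes were kept by filterByExpr (minimum count 10, minimum total 15), which left 18033. Libraries were scaled by TMM factors and compared by edgeR 4.0.16's robust quasi-likelihood test (limma 3.58.1, R 4.3.3) with 6 residual degrees of freedom, and p-values were adjusted over all 18033 genes by the Benjamini-Hochberg method. The test was first run on simulated data. CPM values are on the TMM scale. DESeq2 1.42.0 and limma-voom were alternatives. Coordinates and exon lengths came from GENCODE M21 (GRCm38), which held 54495 of the 54532 gene identifiers. Near-identical copies were sought by aligning transcripts (at least 95% identity over 200 bases and 70% of the transcript). Chi-square per degree of freedom between replicate libraries was 12.2 to 31, above sampling noise, and each library was counted as 1 replicate. This does not show that the libraries came from separate mice.

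The members and gene lists were chosen with earlier results of these data known. A member of the list is not reported here by name, though it stayed in every fit and count. Values in every library are given for Chd4, the other nuclear core subunits and all assembly factors. They are also given for the 8 other subunits with the smallest p, the 4 with the largest p and 2 pairs of paralogs. Up to 4 genes of smallest p from each other list are named, with group means or test results only. BC002163, Lyrm2, Cs, Nrf1, Tfam and Ppargc1a fell outside this rule and were named after their values were seen. The library values of Ndufs6b were also given outside it.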

Additional observations from a re-analysis of the deposited data

Results flagged for a closer look

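In 5 of 96 groups of 4 libraries, 1 library lay far from the other 3 by Dixon's ratio (above 0.829), and chance gives about 1 such group in 20. Ndufs5 was highest in control 2, at 65.9 CPM, where its near-identical copy BC002163 was low. Ndufb11, a subunit of the distal arm, was highest among the KO libraries in KO 1, at 215 CPM, still below the 4 controls. Ndufa3 was highest in control 1, at 118 CPM, with the other controls close together at 111 CPM. Ndufa7 was lowest among the controls in control 3, at 65.5 CPM. The pseudogene Ndufs6b was lowest among the controls in control 1, at 0.286 CPM.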

How the results depend on the processing

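Of the 33 members lower in KO, 21 were called lower under all 21 alternatives (19 subunits, and the assembly factors Ndufaf2 and Ndufaf7), 6 were lost under 1 to 3 of them and 6 under 5 to 8. The median log2 fold change ranged from -0.40 to -0.26 for subunits and from -0.32 to -0.17 for assembly factors. With a library left out in turn, edgeR called 25 to 35 subunit rows and 2 to 5 assembly factors lower, 35 without KO 1 and 25 without KO 4. Against controls 1 and 2 alone 20 subunit rows and 2 assembly factors were called, and against controls 3 and 4 alone 29 and 4, with 1700 genes higher in KO against 2677 with all controls. Scaling by total count alone gave 3696 higher and 1580 lower genes in place of 2677 and 2355, moved the median of all genes to 0.09 and kept 27 of the 33 members. There the log2 fold changes of Ndufaf1, Ndufaf5 and Ndufaf6 were 0.0572, 0.0224 and 0.00215. That of Ndufaf1 was also above 0 without KO 3, KO 4 or control 3 (0.0204 to 0.0802, in a range from -0.158 over the libraries left out) and against controls 1 and 2 alone (0.0598). In these cases the cause was not tested. With the replicate number as a block, 29 subunit rows, 4 assembly factors and 2283 genes in all were called lower. Deviations from the group mean correlated at -0.02, 0.30, -0.06 and 0.10 between same-numbered libraries. The 0.30, for KO 2 and control 2, was the highest between any KO and control library. These values do not settle whether the numbers pair the samples. The pseudogenes Ndufs6b and Ndufb4c, under 1 CPM, had the largest standard errors (0.35 and 0.44).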
